A study of Sus scrofa with 12 samples.

Results

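The genes described here encode the ligands, receptors, secreted modulators and signal carriers of the Wnt pathway in the porcine annulus fibrosus, the fibrous ring of the intervertebral disc. They are the rows of the deposited gene table whose pig symbol begins with WNT, FZD, SFRP, DKK, RSPO, AXIN, TCF7 or DVL, or is LRP5, LRP6, LEF1, CTNNB1, FRZB, WIF1, NKD1, NKD2, RNF43 or ZNRF3, and that reached at least 1 CPM (counts of a gene per 1 M counts of the library) in 3 or more libraries. Of 22198 genes in the table, 45 carried such a symbol and 33 of these reached that level, among 13460 genes that did so in all. The rule used the level over all libraries and not the difference between the groups. Another 13 symbols of the rule in the table of gene names, WNT5A, NKD1, NKD2 and RNF43 among them, were not analysed here.

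Messenger RNA was sequenced from wedges of the ventral annulus fibrosus of the L3-L4 disc. The Hyperloaded group held 6 libraries from 4 pigs, which under anaesthesia received manual loads to the spine of 400 N every 1 or 2 min for 4 h. The Non-loaded Control group held 6 libraries from 6 pigs that were anaesthetised for as long and not loaded. All pigs of both groups were Duroc cross (Large White × Landrace), 3 to 4 months old and of both sexes, none carried a genetic change, and the labels do not say which Hyperloaded libraries share a pig or an interval. P-values take the libraries as independent, and are therefore lower than they should be.

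In the absence of a Wnt ligand, β-catenin is bound by a scaffold of axin and APC, phosphorylated and degraded. A ligand that joins a Frizzled receptor with LRP5 or LRP6 recruits Dishevelled and axin to the membrane, whereupon β-catenin accumulates and acts in the nucleus with TCF and LEF factors. Secreted Frizzled-related proteins, WIF1 and Dickkopf proteins limit this signal outside the cell, R-spondins raise it by sparing Frizzled receptors from the ligases ZNRF3 and RNF43, and in cartilage and disc the balance between them is known to bear on whether cells keep a chondrocyte character.

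The libraries held between 12484228 and 19298415 counts in the Hyperloaded group and between 12519458 and 24897110 counts in the Controls. They differed in the levels of genes that mark tissues and cell types. The mean of 12 cartilage genes (such as COL2A1, ACAN and COL9A1) was 8.86 log2 CPM in Hyperloaded 1 and 7.53 in Hyperloaded 5 but between 3.58 and 6.80 in the other 4 Hyperloaded libraries, against 7.82 to 10.24 in the Controls. All 11 of these genes that could be tested had negative log2 fold changes, and 2 of them passed the test. Of the markers of macrophages, 10 of 11 were higher, their summed level being 162 to 319 CPM in Hyperloaded and 17.9 to 162 CPM in Control libraries. All 5 markers of skeletal muscle were higher, and summed to between 24.8 and 33781 CPM in Hyperloaded libraries, with the highest mean levels in replicates 2, 6 and 3, against 7.58 to 171 CPM in Controls. Markers of adipocytes summed to 1.92 to 189 CPM in Hyperloaded and 1.14 to 7.47 CPM in Control libraries, with 2 of 3 higher. Of 8 markers of tendon and outer annulus 3 were higher (TNMD, THBS4 and MKX) and 1 was lower (COL3A1), with means of 9.94 to 11.18 log2 CPM in Hyperloaded and 9.38 to 10.94 in Control libraries. Of 7 endothelial markers 3 were lower (PECAM1, TIE1 and ESAM), with means of 5.13 to 5.87 log2 CPM in Hyperloaded and 5.40 to 6.15 in Control libraries. Of 5 markers of notochord and nucleus pulposus 2 could be tested and 0 were called. Their means were -2.04 to -0.22 log2 CPM in Hyperloaded and -2.63 to -0.66 in Control libraries. CDH2 had a log2 fold change of 1.69 ± 0.74 (SE, adjusted p = 0.120, edgeR) and KRT8 of -0.48 ± 1.27 (adjusted p = 0.813). SHH had no count in any library. In bulk tissue such as this, fewer cells of a type and less RNA per cell cannot be told apart.

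Of the 33 Wnt genes, 5 rose and 1 fell in the Hyperloaded annulus. The secreted proteins SFRP2 (5.73-fold), DKK3 (2.23-fold) and RSPO2 (4.77-fold), the receptor FZD10 (5.11-fold) and CTNNB1 (1.32-fold), which encodes β-catenin, were higher, whereas SFRP5 was lower, at 0.123 of its Control level. The calls were made at an adjusted p under 0.05 in the quasi-likelihood test of edgeR, with Benjamini-Hochberg adjustment over all genes tested. This count of 18.2% stands beside 19.2% of all genes tested that passed in either direction, and by direction the background was 11.1% higher and 8.13% lower, and the share of the Wnt genes thus lay close to the background. The other 27 were not called, 20 of the 33 log2 fold changes were positive, and their median was 0.17, beside 0.005 over all genes. In none of the 33 were the Hyperloaded and Control libraries free of overlap, whereas 6.51% of all genes were (3.63% with Hyperloaded higher and 2.88% with Hyperloaded lower), and 9 of the 33 (27.3%) had an unadjusted p under 0.05, beside 36.2% of all genes. The filter was met in both groups by 28 of the 33, of which 3 were higher and 1 lower. The other 5, RSPO2, RSPO3, FZD10, WNT5B and AXIN2, met it only through the Hyperloaded libraries, so that the calls of RSPO2 and FZD10 concern genes that entered the test through the group where they are high. With the thresholds that the methods of the study name, an unadjusted p of at most 0.01 and at least a 2-fold change, 4 were higher and 1 lower, while 9.27% of all genes passed (6.79% higher and 2.48% lower). The number of members called changed with single libraries, as did that of all genes. It was 0 without Hyperloaded 6 or without Control 2 (edgeR, with 7 and 9 at an unadjusted p under 0.05), where 10.4% and 9.04% of all genes were called. It was 1 without Hyperloaded 4, Control 1 or Control 4 (14.6%, 13.8% and 10.2% of all genes) and 2 without Control 3 (11%). Without any of the others it was 4 to 6, beside 13.8% to 24.9% of all genes.

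**Figure D1:**
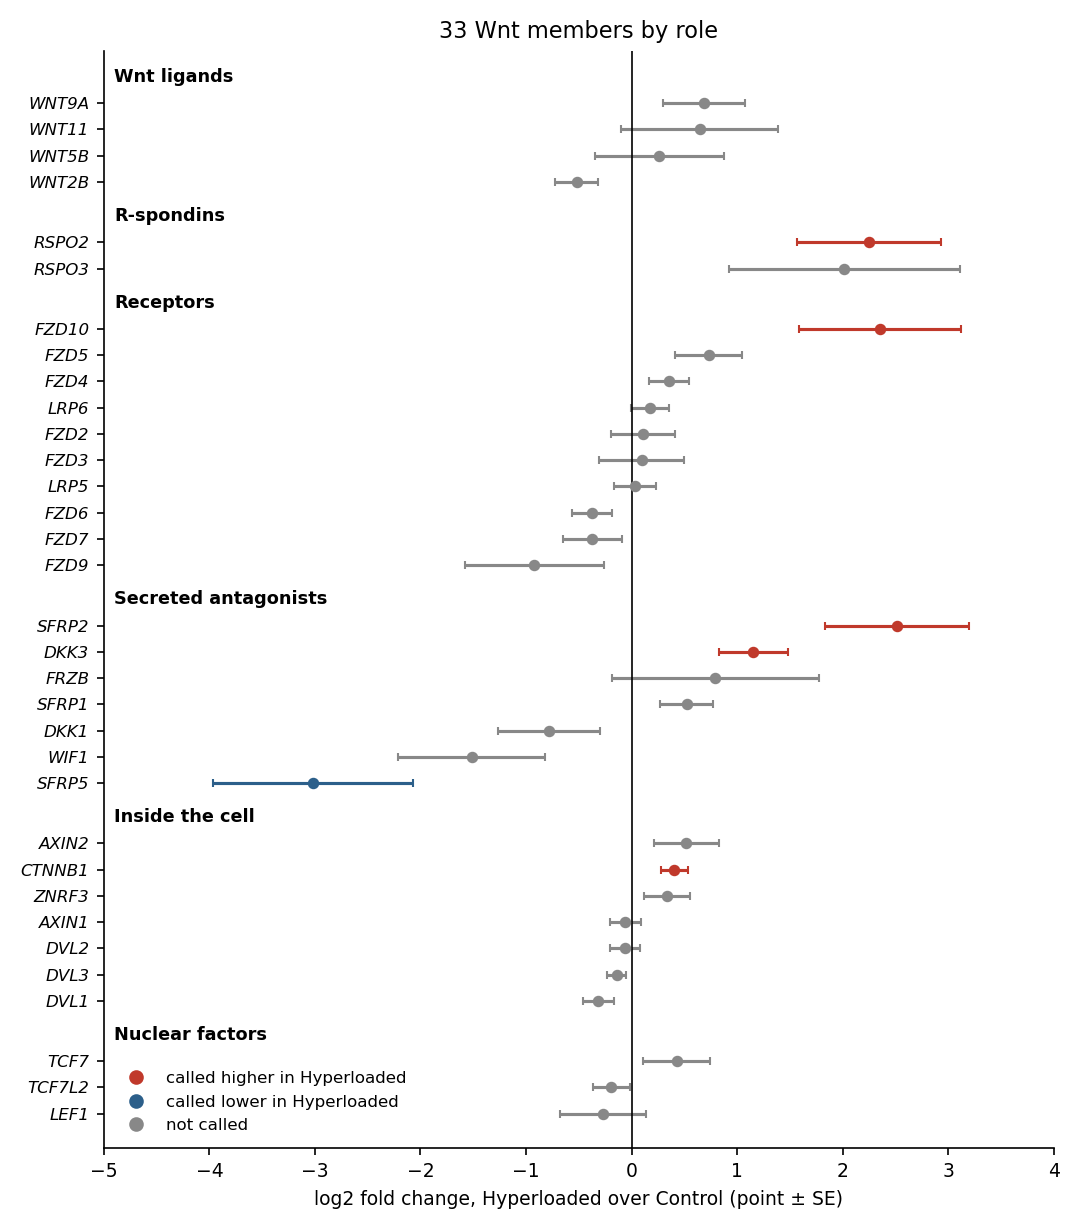
Log2 fold change (Hyperloaded over Control, point ± SE, 6 libraries a group) of each of the 33 Wnt genes, arranged by role, with genes called higher in red, called lower in blue and not called in grey. The secreted antagonists span the widest range, from -3.02 for SFRP5 to 2.52 for SFRP2, whereas the genes inside the cell lie between -0.31 and 0.52.

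The secreted antagonists held 3 of the 6 calls, 2 higher and 1 lower, among only 7 genes. Of all genes tested, 19.2% were called (11.1% higher and 8.13% lower). SFRP2 (ENSSSCG00000009004), a Frizzled-related protein that binds Wnt ligands and is made by connective tissue fibroblasts, lies at chr8:75337311-75345926 of Sscrofa11.1. Its levels in Hyperloaded replicates 1 to 6 were 12.2, 47.6, 11.4, 52.0, 21.9 and 73.4 CPM, against 3.20, 1.33, 11.0, 1.41, 5.34 and 15.9 CPM in Control replicates 1 to 6. All 6 Hyperloaded libraries lay above the Control median of 4.27 CPM, 4 of them (replicates 2, 4, 5 and 6) lay above every Control, and replicates 1 and 3 were below Control 6. The log2 fold change was 2.52 ± 0.68 (SE, adjusted p = 0.0257, edgeR). It ranged from 2.19 to 3.04 when each library was left out in turn, and the adjusted p, between 0.0175 and 0.0593, passed 0.05 upon omission of Hyperloaded 6, Control 1, Control 2 or Control 4.

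SFRP5 (ENSSSCG00000010529, chr14:109120382-109125655), a relative of SFRP2 that likewise binds Wnt ligands, moved the other way. It was at 36.7, 15.2, 4.99, 5.10, 3.53 and 15.3 CPM in Hyperloaded replicates 1 to 6, against 47.3, 191, 124, 282, 9.63 and 3.45 CPM in Control replicates 1 to 6. All Hyperloaded libraries lay below the Control median of 85.6 CPM, but Controls 5 and 6 were as low as the Hyperloaded libraries, so that the groups overlapped and the difference rested on Controls 1 to 4. The log2 fold change was -3.02 ± 0.95 (SE, adjusted p = 0.0436, edgeR). With each library left out it ranged from -3.62 to -2.47, and the call held only without Hyperloaded 1, Control 5 or Control 6; without any of the other 9 libraries the adjusted p lay above 0.05, at most at 0.0967.

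The 250 bases before the RefSeq gene start of SFRP2 and of SFRP5 (Sscrofa11.1, 5′ to 3′ on the strand of the gene) are shown because these genes of 1 family carried the largest positive and the largest negative log2 fold change of the 33. The first spans chr8:75337061-75337310 on the plus strand and the second chr14:109125656-109125905 on the minus strand.
SFRP2: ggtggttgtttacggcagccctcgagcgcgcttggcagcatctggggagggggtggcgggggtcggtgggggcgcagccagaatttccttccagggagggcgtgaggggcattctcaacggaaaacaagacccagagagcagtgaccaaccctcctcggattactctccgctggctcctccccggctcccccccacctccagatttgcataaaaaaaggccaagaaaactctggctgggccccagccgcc
SFRP5: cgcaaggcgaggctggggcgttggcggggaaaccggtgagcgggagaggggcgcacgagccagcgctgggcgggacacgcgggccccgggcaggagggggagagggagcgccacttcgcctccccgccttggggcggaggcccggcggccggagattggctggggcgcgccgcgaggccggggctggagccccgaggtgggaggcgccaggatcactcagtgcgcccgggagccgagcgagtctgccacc
The windows differed in composition, with 63.2% G and C and 13 CpG dinucleotides before SFRP2 against 78.0% and 31 before SFRP5. Neither held the TCF and LEF core motif CTTTGAA or CTTTGAT on either strand. That motif was found in the same window of 3 of the 33 Wnt genes (9.09%), namely AXIN2, DKK1 and LEF1, and of 5.65% of 19534 genes, and in none of the 6 genes called. For 4 of the 33 genes the RefSeq model starts at the start codon, so that its window may not be the promoter. These 4 were counted and not named, so that the windows shown may be among them.

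DKK3 (ENSSSCG00000013401, chr2:47385244-47444664) encodes a divergent Dickkopf protein that, unlike DKK1, does not bind LRP6 in the usual way. It was at 26.3, 52.7, 43.1, 72.5, 21.97 and 72.1 CPM in Hyperloaded replicates 1 to 6, against 21.7, 11.0, 30.1, 16.0, 27.8 and 23.4 CPM in Control replicates 1 to 6. Hyperloaded 2, 3, 4 and 6 lay above every Control, and replicates 1 and 5, the libraries richest in cartilage genes of their group, fell within the Control range. This amounted to a log2 fold change of 1.15 ± 0.33 (SE, adjusted p = 0.0303, edgeR), and ranged from 1.00 to 1.30 when each library was left out. The adjusted p then lay between 0.0117 and 0.0703 and passed 0.05 upon omission of Hyperloaded 4, Hyperloaded 6, Control 1, Control 2 or Control 4.

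FRZB, a Frizzled-related protein first known from cartilage (chr15:88332856-88377275), varied more among libraries of a group than between the groups. Its levels were 144, 67.0, 6.94, 7.47, 6.03 and 15.03 CPM in Hyperloaded replicates 1 to 6, against 7.26, 36.9, 7.50, 82.6, 4.00 and 4.27 CPM in Control replicates 1 to 6. Hyperloaded 1 and 2 and Controls 2 and 4 were high, and the other 8 libraries were low, the highest of them being Hyperloaded 6. Its log2 fold change of 0.79 ± 0.98 (SE, adjusted p = 0.585, edgeR) became -0.21 without Hyperloaded 1, so that no direction can be given.

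WIF1, which binds Wnt ligands outside the cell (chr5:29450442-29543913), did not pass the test. It was at 63.5, 18.1, 29.9, 24.1, 126 and 4.92 CPM in Hyperloaded replicates 1 to 6, against 143, 135, 40.0, 27.5, 197 and 217 CPM in Control replicates 1 to 6. All 6 Hyperloaded libraries lay below the Control median of 139 CPM and 3 lay below every Control, but Controls 3 and 4 lay within the Hyperloaded range. Its log2 fold change was -1.52 ± 0.70 (SE, adjusted p = 0.136, edgeR), and without Hyperloaded 5 it was -2.17 with an adjusted p of 0.0345. Without Hyperloaded 1 and 5 it was -2.72 (adjusted p = 0.0143, edgeR), where 30.4% of all genes were called.

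The other 2 antagonists were not called by edgeR over the 12 libraries. DKK1, which binds LRP5 and LRP6 and keeps them from the ligand, had a lowest, median and highest level of 14.2, 21.7 and 94.3 CPM in Hyperloaded and of 23.1, 57.0 and 98.8 CPM in Control libraries. Hyperloaded 3 was as high as the highest Controls while 4 Hyperloaded libraries were below every Control, with a log2 fold change of -0.78 ± 0.48 (SE, adjusted p = 0.254, edgeR). DKK1 was called lower by limma voom (-1.28, adjusted p = 0.0388) and by edgeR without Hyperloaded 3 (-1.37, adjusted p = 0.0371). SFRP1 was at 9.94 to 30.4 CPM in Hyperloaded and 8.76 to 16.7 CPM in Control libraries, with a log2 fold change of 0.52 ± 0.25 (SE, adjusted p = 0.159, edgeR), and was called in 1 alternative, without Hyperloaded 1 and 5.

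**Figure D2:**
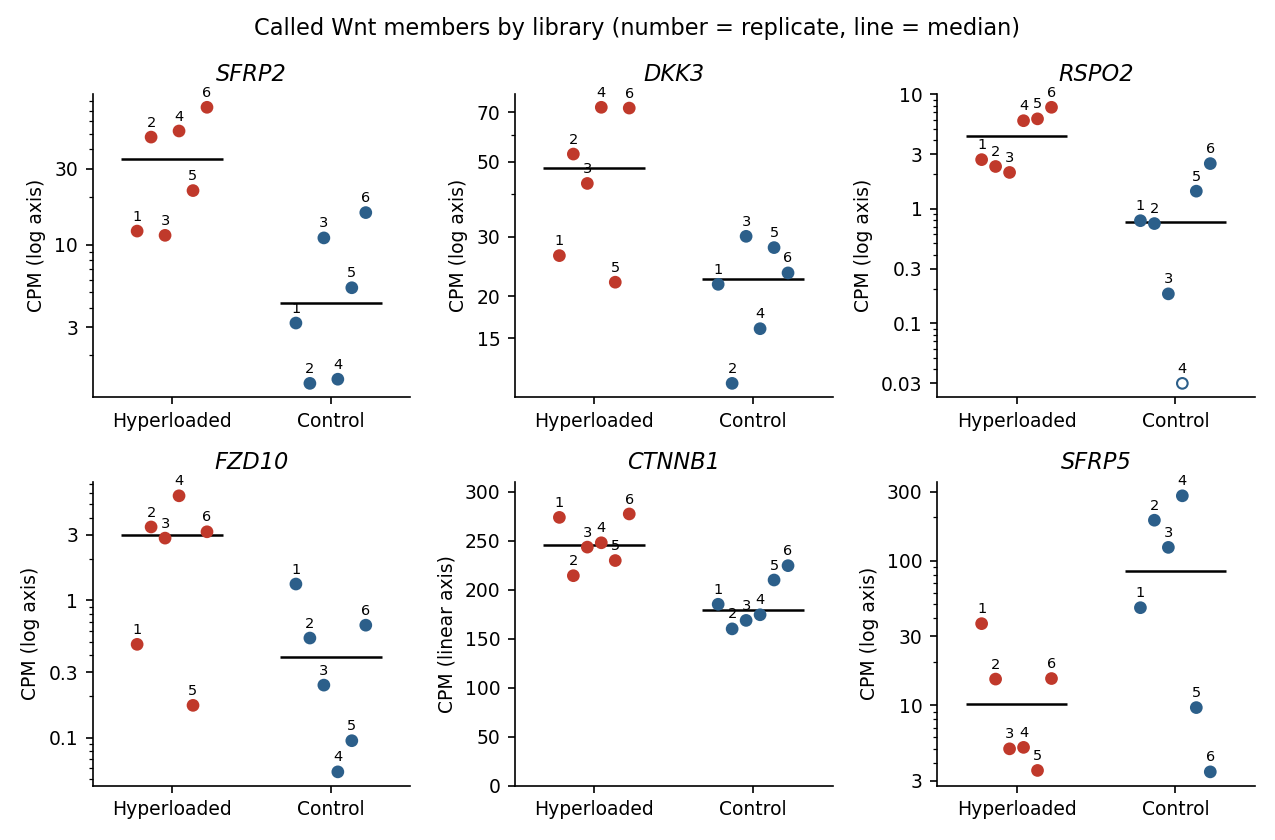
Level of the 6 called Wnt genes in each library, in CPM on a log axis (on a linear axis from 0 for CTNNB1), with the replicate number at each point and the median of each group of 6 as a line; the open point for RSPO2 in Control 4 is a count of 0 drawn at the bottom of the axis. For SFRP2, DKK3, RSPO2 and FZD10, 4 Hyperloaded libraries lie above every Control, and for SFRP5, Controls 5 and 6 lie among the Hyperloaded libraries.

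Among the agonists that act outside the cell, RSPO2 was called higher, having reached 1 CPM in 6 Hyperloaded libraries and in 2 Controls. RSPO2 (ENSSSCG00000006034, chr4:29415774-29577890) is an R-spondin, which binds LGR receptors and draws ZNRF3 and RNF43 away from Frizzled. It was at 2.69, 2.35, 2.08, 5.89, 6.12 and 7.72 CPM in Hyperloaded replicates 1 to 6, against 0.790, 0.745, 0.181, 0, 1.43 and 2.49 CPM in Control replicates 1 to 6. Every Hyperloaded library lay above the Control median of 0.767 CPM and only Control 6 reached into the Hyperloaded range. The log2 fold change was 2.25 ± 0.68 (SE, adjusted p = 0.0384, edgeR), with a range of 1.99 to 2.87 when each library was left out. The adjusted p then ran up to 0.0856 and passed 0.05 upon omission of Hyperloaded 4, Hyperloaded 6, Control 1, Control 2, Control 3 or Control 5. RSPO3, the member nearest to the limit of the rule with 3 libraries at 1 CPM or more, was at 0 to 3.42 CPM in Hyperloaded and 0 to 1.01 CPM in Control libraries, and its log2 fold change of 2.01 ± 1.09 (SE) was not called (adjusted p = 0.200, edgeR).

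None of the 4 Wnt ligands was called by edgeR, nor by DESeq2 or voom, and WNT2B alone had an unadjusted p under 0.05 in edgeR. WNT2B, a ligand of the β-catenin branch, was at 3.17, 3.87 and 5.46 CPM (lowest, median and highest) in Hyperloaded and 3.90, 5.70 and 8.86 CPM in Control libraries, a log2 fold change of -0.52 ± 0.20 (SE, adjusted p = 0.0857, edgeR). WNT9A, known for its part in the formation of joints, was at 21.2, 27.8 and 34.2 CPM in Hyperloaded and 4.41, 16.4 and 30.3 CPM in Control libraries. All Hyperloaded libraries thus lay above the Control median of WNT9A, but Controls 3 and 5 overlapped with them, and the log2 fold change of 0.69 ± 0.39 (SE) was not called (adjusted p = 0.217, edgeR). WNT5B and WNT11, which mostly signal without β-catenin, reached at most 3.34 and 6.02 CPM in any library, with log2 fold changes of 0.26 and 0.64.

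Below the level of the rule were 12 rows, of which 10 were ligands. WNT2, the closest to it with 2 libraries at 1 CPM or more when scaled to the library total, gave 123 of its 148 Hyperloaded counts in Hyperloaded 6 alone, against 5 counts in all Controls together. WNT10B gave 24 counts in Hyperloaded and 83 counts in Control libraries. WNT3A, WNT10A and RSPO4 had no count in any library, which at 3 counts per library allows up to 0.120 to 0.240 CPM.

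Of the 10 receptor genes, edgeR called FZD10 alone, which had reached 1 CPM in 4 Hyperloaded libraries and in 1 Control, and which the filter of the study removes. FZD10 (ENSSSCG00000009751, chr14:24919483-24922554), a Frizzled receptor, was at 0.479, 3.42, 2.84, 5.77, 0.172 and 3.16 CPM in Hyperloaded replicates 1 to 6, against 1.32, 0.532, 0.242, 0.0565, 0.0953 and 0.660 CPM in Control replicates 1 to 6. Hyperloaded 2, 3, 4 and 6 lay above every Control, whereas Hyperloaded 1 and 5 were within the Control range. In log2 terms the fold change was 2.35 ± 0.77 (SE, adjusted p = 0.0489, edgeR), from 1.98 to 2.98 with each library left out. The call held only without Hyperloaded 1, Hyperloaded 5 or Control 1, and the adjusted p without any of the other 9 libraries lay above 0.05, at most at 0.101. DESeq2 also called FZD10 (adjusted p = 0.0111), and limma voom did not (adjusted p = 0.0943).

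FZD9 (chr3:10753294-10762812) divided the Hyperloaded libraries in the same way without passing the test. It was at 85.1, 7.09, 23.4, 13.002, 105 and 9.02 CPM in Hyperloaded replicates 1 to 6, against 33.5, 68.6, 43.8, 75.6, 146 and 91.4 CPM in Control replicates 1 to 6. Hyperloaded 1 and 5 fell within the Control range and the other 4 lay below every Control, and the log2 fold change was -0.92 ± 0.66 (SE, adjusted p = 0.332, edgeR). Without Hyperloaded 1 and 5 FZD9 was called lower (-2.54 ± 0.48, SE, adjusted p = 0.00433, edgeR), where 30.4% of all genes were called. FZD4, another Frizzled receptor and a member with a high level, was at 57.8, 86.0 and 124 CPM (lowest, median and highest) in Hyperloaded and 52.0, 72.4 and 84.7 CPM in Control libraries, with a log2 fold change of 0.36 ± 0.19 (SE, adjusted p = 0.195, edgeR). The co-receptor LRP6 was at 98.8, 124 and 146 CPM in Hyperloaded and 77.6, 111 and 147 CPM in Control libraries, a log2 fold change of 0.17 ± 0.18 (SE, adjusted p = 0.505, edgeR), and that of LRP5 was 0.03 ± 0.20. FZD5 reached an unadjusted p of 0.0380 with a log2 fold change of 0.73 ± 0.32 (SE, adjusted p = 0.116, edgeR), and was called by limma voom (adjusted p = 0.0315), and by edgeR with library totals alone (0.0464) and without Hyperloaded 2 (0.0429). The log2 fold changes of FZD2, FZD3, FZD6 and FZD7 lay between -0.37 and 0.11, and of these FZD6 was called lower without Control 5 (adjusted p = 0.0462, edgeR) and FZD7 without Hyperloaded 1 and 5.

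Inside the cell, CTNNB1 rose by a small and even amount. CTNNB1 (ENSSSCG00000011274, chr13:25163550-25208314) was at 274, 214, 244, 248, 230 and 277 CPM in Hyperloaded replicates 1 to 6, against 185, 160, 169, 174, 210 and 225 CPM in Control replicates 1 to 6. Each Hyperloaded library but replicate 2 lay above every Control. This gave a log2 fold change of 0.41 ± 0.13 (SE, adjusted p = 0.0449, edgeR), between 0.36 and 0.46 with each library left out. The call held only without Hyperloaded 2, Hyperloaded 5, Control 5 or Control 6, and the adjusted p without any of the other 8 libraries was above 0.05 and at most 0.1003.

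AXIN2, which is transcribed in response to β-catenin in many tissues and limits the signal in turn, was low and not called. It was at 2.22, 1.76, 1.07, 0.668, 1.12 and 1.62 CPM in Hyperloaded replicates 1 to 6, against 0.752, 0.745, 1.03, 0.961, 0.858 and 1.57 CPM in Control replicates 1 to 6. Of the Hyperloaded libraries 5 lay above the Control median and the groups overlapped, with a log2 fold change of 0.52 ± 0.31 (SE, adjusted p = 0.237, edgeR). The 250 bases before its RefSeq start (chr12:12343208-12343457, minus strand, Sscrofa11.1) are shown because AXIN2 is the usual readout of β-catenin and because they hold the motif CTTTGAT, in capitals, whose first base is at position -16 from the start.
AXIN2: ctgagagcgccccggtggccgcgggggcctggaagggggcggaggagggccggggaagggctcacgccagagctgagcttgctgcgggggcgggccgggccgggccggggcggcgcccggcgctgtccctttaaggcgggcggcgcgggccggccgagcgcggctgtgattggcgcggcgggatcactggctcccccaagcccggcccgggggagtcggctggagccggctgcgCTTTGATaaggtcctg
A match of these letters is a description of the sequence and not of binding. The Dishevelled genes, which carry the signal from Frizzled, had log2 fold changes of -0.31 ± 0.15 for DVL1 (SE, adjusted p = 0.141, edgeR), -0.14 ± 0.09 for DVL3 (adjusted p = 0.288) and -0.06 for DVL2. DVL1 was at 70.3, 80.8 and 99.1 CPM (lowest, median and highest) in Hyperloaded and 69.6, 104 and 125 CPM in Control libraries, and DVL3 was at 49.5, 55.7 and 60.9 CPM in Hyperloaded and 53.8, 61.7 and 64.2 CPM in Control libraries. The sign for DVL3 was positive when libraries were scaled by total count alone. The scaffold AXIN1 (log2 fold change -0.06) and the ligase ZNRF3 (0.34) were not called either. Of the nuclear factors that β-catenin joins, LEF1 (-0.27), TCF7 (0.43) and TCF7L2 (-0.19) were not called, and none had an unadjusted p under 0.05 in edgeR or was called by DESeq2 or voom.

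The antagonists were set against the cartilage genes within the 6 Controls, which come from separate pigs. FRZB rose with the mean of the cartilage genes over these libraries, with Pearson's r = 0.964 (exact permutation p = 0.00139, adjusted over 3 relations 0.00417) and Spearman's rho = 1 (exact permutation p = 0.00278, the smallest possible with 6 libraries, adjusted 0.00833). Without the 2 Controls farthest from the median of the cartilage mean, r was 0.903. SFRP2 (r = -0.732 and rho = -0.657, exact permutation p = 0.111 and 0.175, adjusted 0.153 and 0.242) and DKK3 (r = -0.657 and rho = -0.600, exact permutation p = 0.153 and 0.242, adjusted 0.153 and 0.242) had negative values that did not pass, and r without the 2 farthest Controls was -0.729 for SFRP2 and -0.589 for DKK3. Over all 33 members, 4 had an unadjusted p under 0.05 for r. FZD4, SFRP5 and RSPO2, named after their values were seen, were the others beside FRZB. FZD4 had r = -0.933 and rho = -0.829 (adjusted exact permutation p over 33 relations 0.138 and 0.321) and r = -0.963 without the 2 farthest Controls. SFRP5 had r = 0.919 and rho = 0.943 (adjusted exact permutation p 0.153 and 0.275), with r = 0.945 without them, and RSPO2 had r = -0.865 and rho = -0.886 (adjusted exact permutation p 0.183 and 0.275), with r = -0.647 without them. For CTNNB1 r was -0.804 (adjusted exact permutation p = 0.288, and r = -0.969 without them), and for WIF1, r = -0.796 (adjusted exact permutation p = 0.298) became -0.469. In that family of 33 the values for FRZB were 0.0458 by Pearson's r and 0.0917 by Spearman's rho (adjusted exact permutation p). The Hyperloaded libraries share pigs and were not tested. In them FRZB was at 144 CPM in replicate 1 (cartilage mean 8.86) and 67.0 CPM in replicate 2 (6.80). It was lowest in replicate 5, at 6.03 CPM, where the cartilage mean was 7.53.

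**Figure D3:**
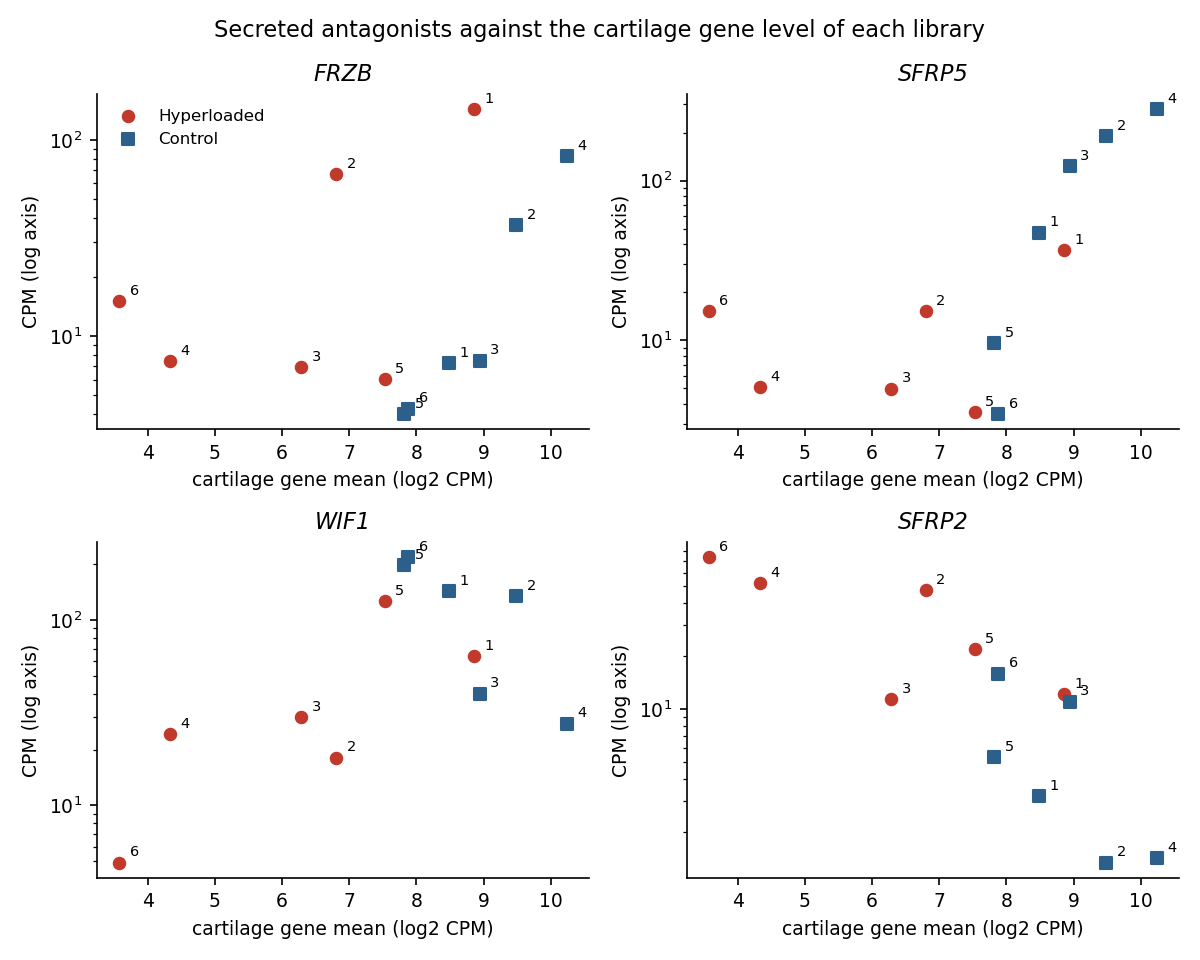
Level of FRZB, SFRP5, WIF1 and SFRP2 in each library (CPM, log axis) against the mean of 12 cartilage genes (log2 CPM), with Hyperloaded libraries as circles and Controls as squares and the replicate number beside each point. Among the Controls FRZB and SFRP5 are highest in replicates 4 and 2, where the cartilage mean is highest, and WIF1 is highest in replicates 6 and 5. Among the Hyperloaded libraries FRZB is lowest in replicate 5, although its cartilage mean is above that of replicate 2. SFRP2 is highest in the Hyperloaded libraries of the lowest cartilage mean, replicates 6 and 4. It is next highest in Hyperloaded 2, whose cartilage mean is above that of Hyperloaded 3.

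Of these relations FRZB alone passed adjustment, by r in both families and by rho only in that of 3. The part of tissue content in the group differences was not tested. SFRP2 was highest in the libraries with the lowest cartilage mean, Hyperloaded 6 (73.4 CPM at 3.58) and Hyperloaded 4 (52.0 CPM at 4.34), and lowest in Controls 2 and 4, where that mean was 9.49 and 10.24. This order did not hold within the groups. Hyperloaded 2 had 47.6 CPM at 6.80 against 11.4 CPM in Hyperloaded 3 at 6.28. Control 3 had 11.0 CPM at 8.94 against 5.34 CPM in Control 5 at 7.82. The means of the macrophage markers did not overlap between the groups (3.25 to 4.09 log2 CPM in Hyperloaded and 0.16 to 3.08 in Control libraries), so that loading and macrophage content cannot be told apart. Without Hyperloaded 2, 3 and 6, the libraries with the most muscle transcripts, the log2 fold changes were 2.18 for SFRP2, 0.90 for DKK3, 2.38 for RSPO2, 2.06 for FZD10, 0.43 for CTNNB1 and -2.84 for SFRP5. Each kept its sign in these 9 libraries and 0 of the 33 Wnt genes were called by edgeR, the only tool run on them, with 7 at an unadjusted p under 0.05, where 0.825% of all genes were called.

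Other genes of the pathway, outside the rule, were taken from 7 lists, of which 51 genes could be tested. Of these 8 rose and 6 fell, or 27.5%, beside 19.2% of all genes tested, and their median log2 fold change was 0.15. With each library left out in turn, 3 to 9 of them rose, the fewest without Control 4, and 1 to 8 fell, the fewest without Control 2 or Control 4. Among 8 co-receptors, ROR1, a receptor for WNT5A, rose (log2 fold change 2.90 ± 0.66, SE), whereas the R-spondin receptor LGR4 (-1.70 ± 0.46) and the planar polarity receptor PTK7 (-1.12 ± 0.36) fell. Of 14 genes of the degradation machinery, the kinases GSK3B (0.52 ± 0.13), CSNK1E (0.47 ± 0.14) and CSNK1A1 (0.47 ± 0.15) rose, and the scaffold APC2 (-2.39 ± 0.34) and the ubiquitin ligase subunit BTRC (-0.51 ± 0.13) fell. Among 9 nuclear cofactors the kinase TNIK (2.85 ± 0.62) and the corepressor TLE4 (1.00 ± 0.28) rose, and the coactivator BCL9 (-0.87 ± 0.26) and the chromatin remodeller CHD8 (-0.43 ± 0.14) fell.

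Of 7 extracellular modulators the glypican GPC3 rose (1.13 ± 0.35). The list of target genes held 18, of which 5 could be tested. Of these MYC rose (2.07 ± 0.31), a gene that many other signals also induce. CCN6 (-2.36 ± 0.83, adjusted p = 0.0616) and CCN4 (0.78 ± 0.31, adjusted p = 0.0955) were not called by edgeR. By limma voom 3 of the 5 were called, MYC, CCN4 and CCN6, beside 27.1% of all genes. MYC was at 25.8 to 119 CPM in Hyperloaded and 11.3 to 19.2 CPM in Control libraries, without overlap. Of the 51 pathway genes tested, 4 were without overlap (MYC, APC2, GSK3B and TNIK), beside 6.51% of all genes. None of the 6 planar polarity genes and neither of the 2 genes for ligand secretion was called by edgeR, with 1 and 0 at an unadjusted p under 0.05. The lists were thus called in both directions within the co-receptors, the degradation machinery and the cofactors.

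**Figure D4:**
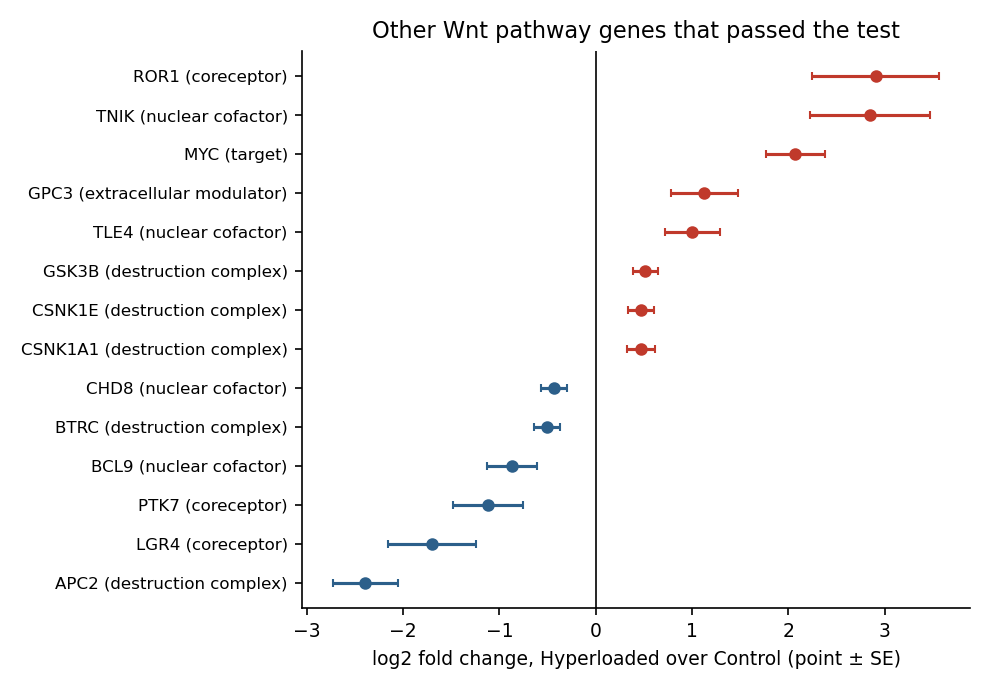
Log2 fold change (Hyperloaded over Control, point ± SE, 6 libraries a group) of the 14 other Wnt pathway genes that passed the edgeR test at an adjusted p under 0.05, with the list of each in brackets. The largest rise is that of ROR1 (2.90) and the largest fall that of APC2 (-2.39).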

How the data were processed

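Messenger RNA libraries of 6 Hyperloaded and 6 Control samples were analysed. Base calls were converted with CASAVA and reads mapped to Sscrofa11.1 with JMP Genomics. The authors deposited a table of unnormalized expected counts, where reads that match more than 1 gene may be split, and these were rounded to integers before testing. Genes with at least 1 CPM of the library total in 3 or more libraries were tested, libraries were scaled by TMM (factors 0.710 to 1.37), and levels are CPM on these scaled sizes, or their log2 (prior count 2). The comparison used edgeR 4.0.16 in R 4.3.3 (quasi-likelihood, 2-sided, no covariates) with Benjamini-Hochberg adjustment over 13460 genes. Standard errors came from the F statistic. DESeq2 1.42.0 and limma 3.58.1 served as alternatives, as did other scalings, filters and libraries left out.

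In counts simulated for this comparison over 13460 genes, 1 of 67 genes changed 1.5-fold, 21 of 67 changed 2-fold and 59 of 66 changed 4-fold were called. Changes of 2-fold or less were thus mostly missed in the simulation. Only those genes were changed in it, whereas 19.2% of all genes tested were called in the data. The adjustment was therefore stricter in the simulation, and its shares cannot be carried over to the data. The simulated libraries were drawn as independent, whereas the 6 Hyperloaded libraries come from 4 pigs. Exact permutations were run in Python 3.11.15 with scipy 1.17.1.

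The build is that of the labels and methods. The annotation used for counting is not given in the sources used here and may be older, since 3819 identifiers of the gene name table, which gave symbols to 11700 identifiers (52.7%), lie above the highest one counted. RefSeq positions and sequences of Sscrofa11.1 were matched by symbol and not used for counting. All 33 members had a position. Strand was not stated for the counting, so overlapping and antisense genes cannot be separated. The members and gene lists were chosen with earlier results of these data known. Full values are given for FRZB, SFRP2 and DKK3, each called member and the 8 members with the highest mean CPM, and values in every library also for AXIN2, chosen after its values were seen. The promoter windows were likewise added after the data were seen. Of other lists, up to 4 called genes by smallest p were to be named, and CSNK1A1 was added.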

Additional observations from a re-analysis of the deposited data

Results flagged for a closer look

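DVL3, a Dishevelled gene, was at 53.8 CPM in Control 3, whereas the other 5 Controls lay between 60.4 and 64.2 CPM. The gap from Control 3 to its nearest neighbour was 0.653 of the range of the group on the log2 scale, past Dixon's 95% limit for 6 samples. It was the only such library among 26 groups checked (13 members in 2 groups), and chance alone marks about 1 in 20 groups.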

How the results depend on the processing

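The 6 called members kept their sign in each alternative that could be fitted, with log2 fold changes of 2.18 to 3.24 for SFRP2, 0.90 to 1.51 for DKK3, 1.99 to 3.38 for RSPO2, 1.98 to 2.98 for FZD10, 0.34 to 0.69 for CTNNB1 and -3.62 to -2.45 for SFRP5. Their calls were less stable, passing in 17, 15, 15, 7, 9 and 11 of 22 alternatives (21 for FZD10, which the filter of the study removed). The members called higher numbered 3 with upper quartile scaling (1263 of all genes) and 3 with no filter (1432 of all genes). Those called lower numbered 2 with voom (1814 of all genes). In the main fit 1492 of all genes were higher and 1094 lower. With the replicate number as a replicate block, 2 (RSPO2 and SFRP2) were higher and 0 lower, beside 12.8% of all genes called. Correlations of same-numbered deviations ran from -0.10 to 0.27, with 3 of 6 libraries closest to their own number. The groups came from different pigs, so the numbers do not pair animals. Whether the numbers pair the libraries in any other way is not decided by these values. With each library left out, 0 to 5 were higher and 0 to 2 lower, beside 720 to 1854 and 497 to 1494 of all genes. Without Hyperloaded 6 or without Control 2 there were 0 in edgeR (7 and 9 at an unadjusted p under 0.05), beside 10.4% and 9.04% of all genes. Without Hyperloaded 2, 3 and 6, 0 were higher and 0 lower, beside 85 and 26 of all genes. Without Hyperloaded 1 and 5, the Hyperloaded libraries with the highest cartilage means, 5 were higher and 4 lower (FZD9, WIF1, FZD7 and SFRP5). In that fit 2188 genes were higher and 1905 lower in all.

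Of other pathway genes, 13 rose and 3 fell with library totals alone, which moved the median log2 fold change of all genes to 0.29 (2103 rose and 325 fell of all genes). At the thresholds of the study, applied to the edgeR values, 5 rose and 3 fell (914 and 334 of all genes). Without Hyperloaded 2, 3 and 6, 1 rose and 0 fell (85 and 26), and 3 to 9 rose and 1 to 8 fell with each library left out. With library totals alone DVL3 was at 0.15 (log2), and FRZB ran from -0.21 without Hyperloaded 1 to 1.78 without Control 4 (at -0.21, adjusted p = 0.888 in edgeR, 0.230 to 0.993 over its alternatives). The cause was not tested. The relation of FRZB with cartilage genes had rho = 0.943 with library totals (adjusted exact permutation p = 0.05), and rho = 1 without each Control in turn, where 5 libraries allow no adjusted p below 0.05. Few counts stood behind RSPO3 (142 in all Hyperloaded and 33 in all Control libraries), FZD10 (290 and 64) and RSPO2 (465 and 102).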
